A study of Mus musculus with 4 samples.

Results

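Among the merged regions of histone H4 acetylation in 4 macrophage libraries, 7337 of 62481 had a peak in untreated wild-type cells and in no other library. These regions were weak and narrow calls, and most of them did not lie beside the acetylated regions that all 4 libraries shared. Of the 7337, 916 (12.5%, 95% interval 11.7 to 13.3%) lay within 1000 bp of a region called in all 4 lists, and 2373 (32.3%, 31.3 to 33.4%) had no other merged region of any kind within 5000 bp. The largest set, 2640 regions (36.0%, 34.9 to 37.1%), lay within 1000 bp of another region that was not called in all 4 lists. The remaining 1408 (19.2%, 18.3 to 20.1%) lay more than 1000 and up to 5000 bp from their nearest neighbour. Among the 55144 other merged regions, 20.0% lay within 1000 bp of another region called in all 4 lists. Of these, 22.6% had no other merged region within 5000 bp. Lying apart from the shared regions was thus usual for merged regions of other kinds as well.

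The libraries came from bone marrow-derived macrophages of C57BL/6 mice, primary phagocytes grown from marrow and taken on day 7 of differentiation, and chromatin was immunoprecipitated with an antibody to acetylated histone H4 (ChIP-seq). The 4 groups were HDAC3 -/- (HDAC3 KO) cells given lipopolysaccharide (LPS, 100 ng/ml for 4 h), untreated HDAC3 KO cells, HDAC3 +/- cells given the same LPS, and untreated HDAC3 +/- cells. The HDAC3 +/- cells are named wt by the submitters, so the wt libraries also carry 1 lost HDAC3 allele. How the allele was deleted, and how many mice gave each library, is not given in the sources used here. Each group had 1 library and 1 deposited peak list. No difference between libraries could be set against a spread between replicates, and no test between conditions was made. A region called in 1 list alone therefore cannot be told apart from a call missed in the other 3.

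Acetyl groups on the tail of histone H4 loosen the packing of nucleosomes and are found at active promoters and enhancers. HDAC3 is a deacetylase that acts within NCoR and SMRT corepressor complexes and removes such marks, and LPS, sensed by TLR4, sets off a wave of acetylation at inflammatory genes in macrophages. Acetylated stretches often run over several nucleosomes, and a peak caller can report such a stretch as 1 wide peak or as several short pieces.

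To find the regions, overlapping or touching peaks of the 4 lists were merged, and a merged region was kept when its peaks came from untreated wt alone. Each of the 7337 regions held exactly 1 peak. They made up 11.7% of all merged regions, and 20.1% of the 36415 merged regions with an untreated wt peak. They held 15.1% (14.7 to 15.4%) of the 48706 untreated wt peaks and 8.65% of the length those peaks covered, 3.06 of 35.4 Mb. By the same rule, 9054 regions (14.5% of all merged regions) were called in LPS-treated HDAC3 KO alone, 5164 (8.26%) in untreated HDAC3 KO alone and 4734 (7.58%) in LPS-treated wt alone. These sets were chosen by the peak calls of the 4 lists, so numbers drawn from the same calls and scores describe them and test nothing. In all, 45589 peaks were listed for LPS-treated HDAC3 KO, 41956 for untreated HDAC3 KO, 39550 for LPS-treated wt and 48706 for untreated wt, and read depth is unknown. Intervals are exact binomial, or order-statistic for medians, and cover counting error only, since neighbouring peaks are not independent.

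The regions called in untreated wt alone were low in the list. The score is the authors' own value per peak, with no stated scale, and it is used here only to rank peaks within a list. The median score of the 7337 regions was 65.1 (64.5 to 65.9), with quartiles of 56.1 and 84.1, against 93.0 for the 11251 untreated wt regions shared with 1 or 2 other lists and 268 for the 17827 regions called in all 4. A total of 6635 regions (90.4%) scored below the median of the untreated wt list, and 4949 (67.5%) fell in its lowest 3 score deciles. The lowest score was 50.0, the floor of the list, and 2649 regions (36.1%) scored under 60. At the upper end, 1112 regions (15.2%) scored at least 100, 99 (1.35%) at least 200 and 6 at least 400. The median region outscored 20.4% of the peaks of its list. The corresponding figure was 22.0% for regions called in LPS-treated HDAC3 KO alone, 18.6% for untreated HDAC3 KO alone and 20.1% for LPS-treated wt alone, so single-list regions of every library had similar ranks in their own lists.

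The share of untreated wt peaks with no partner was lower in each higher score decile. It was 39.5% in the lowest decile (scores 50.0 to 56.5), 14.1% in decile 5 (93.0 to 116) and 1.58% in decile 8 (205 to 291). In the top decile 1 of 4870 peaks had no partner. At equal score, distance also went with the share lacking a partner. In the lowest decile it was 29.2% (26.4 to 32.1%) of 994 peaks with such a region within 1000 bp, 33.2% (30.1 to 36.5%) of 852 peaks with one between 1000 and 5000 bp away and 44.7% (42.9 to 46.5%) of 3026 peaks farther away. In decile 5 the shares were 7.50, 9.73 and 17.5% in the same order. The order of the 3 distance classes, with the farthest class highest, was the same in each of the lowest 8 deciles. For a peak with a partner, the gap was measured from its merged region, which joins peaks of several lists and can be wider. This shortens the gaps of peaks with a partner, so the order partly follows from how gaps were measured.

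**Figure D1:**
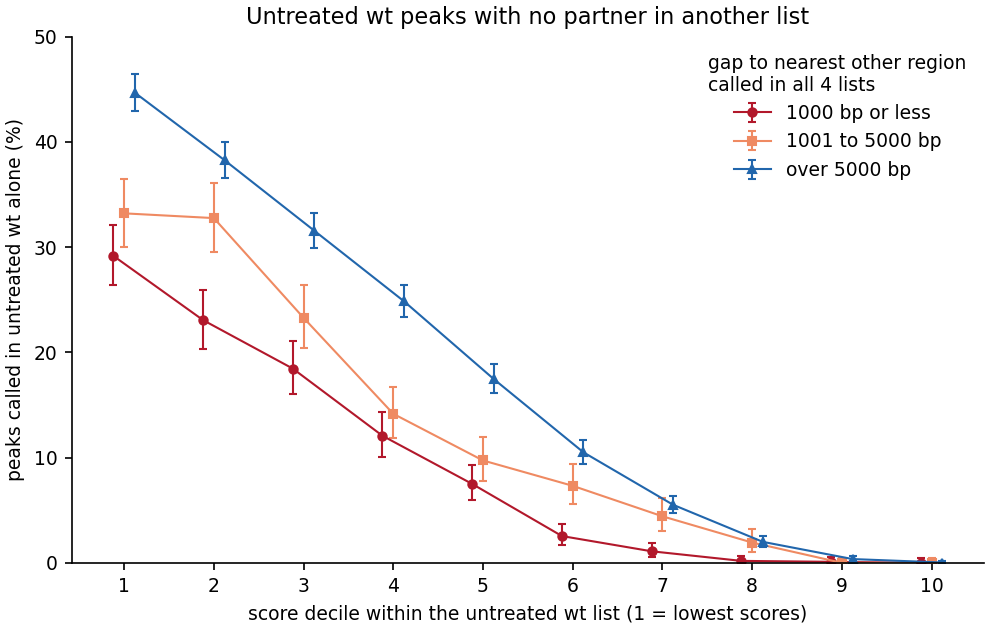
Percentage of untreated wt peaks that were called in untreated wt alone (y axis), by score decile within that list (x axis, lowest scores left), for 3 classes of gap to the nearest other region called in all 4 lists; bars are exact 95% binomial intervals. Peaks over 5000 bp away lie above the other classes in the lowest 8 deciles, at 44.7% against 29.2% for the closest class in decile 1. Gaps of peaks with a partner were measured from their merged region, which can be wider than the peak. Peaks inside a region called in all 4 lists are classed by their gap to a different such region.

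The regions were also narrow. Their median width was 373 bp (368 to 379), with quartiles of 281 and 511 bp and extremes of 118 and 1797 bp, and this was 0.63 times the median width of all untreated wt peaks, 590.0 bp. The corresponding ratio was 0.65 for regions called in LPS-treated HDAC3 KO alone, 0.62 for untreated HDAC3 KO alone and 0.60 for LPS-treated wt alone. Part of this narrowness went with the low score, since width and score were positively correlated over the 7337 regions (Spearman rho 0.47, Pearson r 0.52 on log10 values, given as a description over regions of 1 library). At equal score the regions had smaller median widths than other untreated wt peaks in the lowest 6 deciles. In decile 1 their median width was 315 bp, against 363 bp for the other peaks, and in decile 3 it was 378 against 438 bp. In decile 8 the medians were 851 and 842 bp. A wider peak has more room to touch a peak of another list, so the rule that chose the regions itself favours narrow ones.

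**Figure D2:**
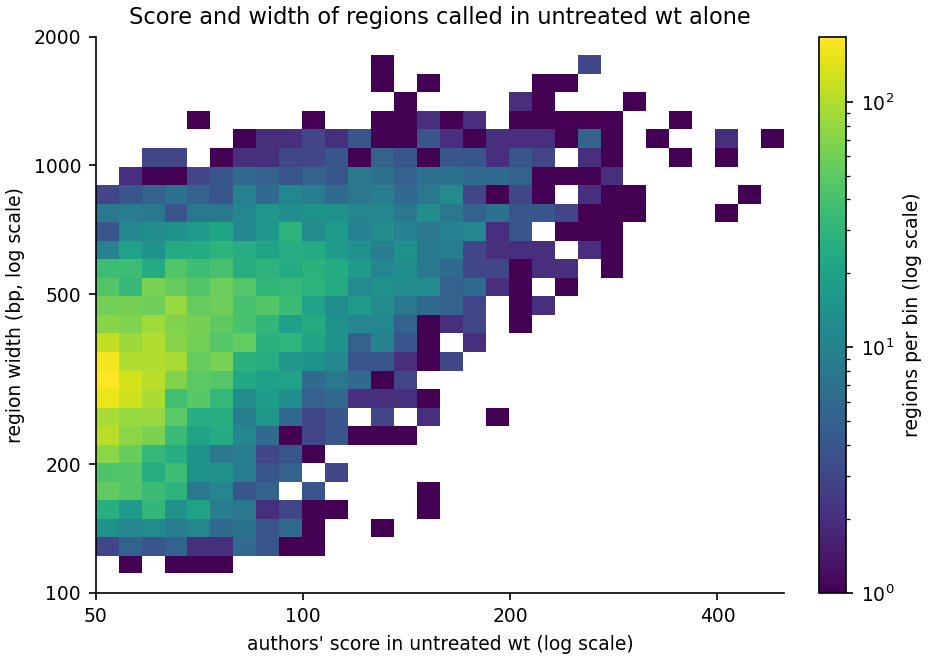
Score (x axis, authors' value, log scale) and width (y axis, bp, log scale) of the 7337 regions called in untreated wt alone; colour gives the number of regions per bin on a log scale. The fullest bins lie at the lowest scores and at widths below the overall median of 373 bp, with 36.1% of the regions scoring under 60 and a thin tail to a score of 469 and a width of 1797 bp.

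Distances to the shared regions were long. The median gap, counted as the bases between the nearest edges, was 16967 bp (16315 to 17923), with quartiles of 4436 and 53813 bp. A gap of at most 100 bp was found for 252 regions (3.43%), of at most 500 bp for 695 (9.47%) and of at most 5000 bp for 1954 (26.6%), while 1949 (26.6%) lay more than 50000 bp away. On both sides within 1000 bp, 24 regions (0.33%) had a region called in all 4 lists, so few of them filled a short break between shared regions. Among the 55144 other merged regions, 20.0% had a further region called in all 4 lists within 1000 bp, and 22.6% had no other merged region within 5000 bp. These 55144 include the regions called in all 4 lists.

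Within the untreated wt list, the regions were also set beside untreated wt regions with a peak in 1 or 2 other lists. Of the regions called in untreated wt alone, 12.5% lay within 1000 bp of a region called in all 4 lists, against 18.3% of the shared set and 19.9% of it after weighting to the same score deciles. Regions with no other merged region within 5000 bp made up 32.3%, against 22.1% of the shared set and 20.6% after weighting. A shared region is the union of peaks from several lists and is wider, with a median of 878 bp, which shortens its gaps. Among single-list regions, the share within 1000 bp of a region called in all 4 lists was 12.5% for untreated wt, 16.7% (16.0 to 17.5%) for LPS-treated HDAC3 KO, 19.2% (18.1 to 20.3%) for untreated HDAC3 KO and 12.1% (11.2 to 13.1%) for LPS-treated wt. The share with nothing within 5000 bp was 32.3% for untreated wt, 17.5, 21.6 and 24.7% for the other sets in the same order. By this measure the untreated wt share was the largest of the 4, but not by others. The median gap to a region called in all 4 lists was 16967 bp for untreated wt and 21381 bp for LPS-treated wt, and the share with no merged region within 50000 bp was 4.33% for untreated wt and 4.65% for LPS-treated wt. The number of peaks near any region also differed between the lists, and no test of these differences was possible with 1 library per group.

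**Figure D3:**
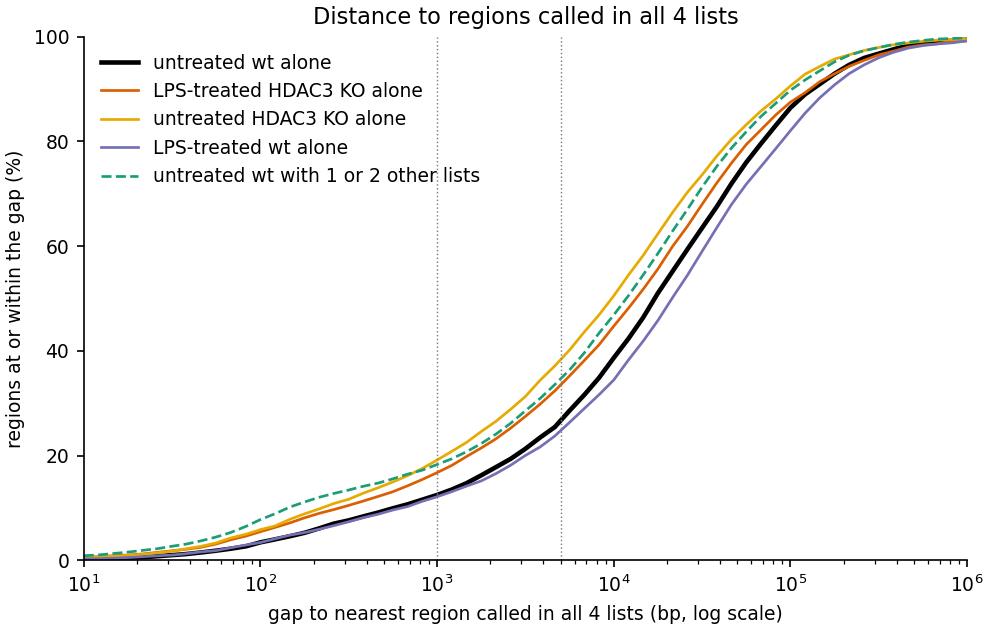
Cumulative percentage of regions (y axis) at or within a given gap to the nearest region called in all 4 lists (x axis, bp, log scale), for the 4 single-list sets and for untreated wt regions shared with 1 or 2 other lists; dotted lines mark 1000 and 5000 bp. The curve for untreated wt alone passes 12.5% at 1000 bp and 26.6% at 5000 bp, below the curve for shared untreated wt regions.

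Among the 7337 regions, median score and width changed little with the gap, but high scores were less frequent beside regions called in all 4 lists. The median score was 63.0 (61.3 to 64.5) for the 695 regions at a gap of at most 500 bp, 66.0 (64.5 to 67.1) for the 1981 between 5000 and 20000 bp away and 66.0 (64.9 to 67.2) for the 1949 beyond 50000 bp. Median widths at the same gaps were 369, 389 and 361 bp. Over all regions the Spearman rho between score and gap was 0.06, and between width and gap -0.03. Beside regions called in all 4 lists, 84 of 916 (9.17%) scored at least 100, against 374 of 2373 (15.8%) of those with nothing within 5000 bp and 429 of 2640 (16.2%) of those within 1000 bp of a region not called in all 4 lists.

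The nearest neighbours were of 4 kinds. Of the 3556 regions with a merged region within 1000 bp, the nearest was another region called in untreated wt alone for 1164 (32.7%), an untreated wt region shared with 1 or 2 lists for 985 (27.7%), a region called in all 4 lists for 760 (21.4%) and a region with no untreated wt peak for 647 (18.2%). Regions called in untreated wt alone were 7337 of the 62481 merged regions, and regions called in all 4 lists were 17827. The median gap from a region to the nearest peak of each list was 8428 bp for LPS-treated HDAC3 KO, 6712 bp for untreated HDAC3 KO, 9367 bp for LPS-treated wt and 2505 bp for other peaks of untreated wt itself. A peak lay within 1000 bp of 19.9% of the regions in LPS-treated HDAC3 KO, 25.4% in untreated HDAC3 KO, 18.1% in LPS-treated wt and 39.5% in untreated wt itself. The other untreated library thus came closer than both LPS-treated libraries. Its list had fewer peaks than that of LPS-treated HDAC3 KO but more than that of LPS-treated wt. Gaps to each separate list are not given for other regions, so this order is not shown to be particular to these ones. Closeness to the own list was shared by the other single-list sets. A peak of the own list lay within 1000 bp of 59.6% of regions of LPS-treated HDAC3 KO alone, and a peak of any other list of 39.6%. These shares were 47.9 and 46.3% for untreated HDAC3 KO alone, 50.7 and 39.5% for LPS-treated wt alone and 39.5 and 34.6% for untreated wt alone. For untreated wt regions shared with 1 or 2 lists, weighted to the same score deciles, an untreated wt peak outside the region lay within 1000 bp in 39.6% of cases. Further untreated wt peaks inside a shared region were not counted, so this share is too low to be set against 39.5%.

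Regions called in untreated wt alone also formed short runs. When they were joined across gaps of up to 5000 bp with no other kind of region between, 5695 stood alone and 1642 (22.4%) fell into 748 groups. Most groups were pairs (636), and 24 groups held 4 to 6 regions. The same grouping is not given for other sets of regions, so runs are not shown to be particular to these ones. The median score was 64.5 (64.3 to 65.0) for regions alone, 68.2 (66.5 to 69.8) in groups of 2 or 3 and 76.7 (70.6 to 84.1) for the 106 regions in groups of 4 to 6. The median span of those 24 groups was 5879 bp. Of the 106 regions in them, 10 (9.43%) lay within 5000 bp of a region called in all 4 lists, against 1581 of the 5695 regions alone (27.8%). Any other kind of region ends a group, so the rule itself keeps the inner regions of a group apart from such regions. This lower share is therefore partly set by the grouping and is no separate trait of the groups.

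The group of 6 regions at chr1:159373434-159380109 (mm9, as are all positions here) spanned 6676 bp with scores of 115, 222, 109, 94.9, 157 and 61.3 from left to right. Gaps of 3 and 5 bp separated the first pair and regions 4 and 5, and the nearest peak of another list lay 8103 bp away. A second group of 6, at chr8:126395892-126402977, had scores of 58.1, 55.5, 72.4, 87.2, 118 and 176, and a peak of another list came within 698 bp. The last of the 3, at chr7:20046964-20058028, had scores of 57.8 to 140 and a nearest peak of another list at 1005 bp. The 3 groups spanned 6676 to 11065 bp, and their untreated wt peaks were 250 to 1375 bp wide. That the other 3 lists had no peak within these stretches follows from the grouping rule.

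The region with the highest score was chr8:126590020-126591166, with a score of 469, higher than 90.6% of the peaks of the list. It was 1147 bp wide and stood alone, its nearest neighbour being a region called in all 4 lists at 44225 bp. The next was chr2:6006643-6007465, with a score of 429, whose nearest neighbour was a region at 14066 bp that was also called in untreated wt alone, with a score of 50.0. The region at chr1:130643175-130643974 (427) lay 67 bp from a further region called in untreated wt alone that scored 313, and the nearest peak of another list was at 20341 bp. The region at chr7:87586679-87587678 (423) had a region of untreated wt alone at 993 bp (167). The region at chr2:163575410-163576526 (420) had its nearest neighbour at 9983 bp, shared with untreated HDAC3 KO. The gaps of these 5 to a region called in all 4 lists ran from 10199 to 85922 bp. Of these 5, the chr8 region and both chr2 regions had nothing within 5000 bp. Among regions with nothing within 5000 bp, they were followed by chr14:77910985-77912111 (322.5) and chr7:88027571-88028369 (305).

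Beside shared regions, the highest-scored example was chr14:68666047-68667247, with a score of 415 and a width of 1201 bp. It lay 965 bp from a region called in all 4 lists, chr14:68668213-68669880, which scored 68.1 in LPS-treated HDAC3 KO, 221 in untreated HDAC3 KO, 123 in LPS-treated wt and 876 in untreated wt. A short region of untreated wt alone with a score of 50.0 lay between them, and the widest of all 7337 regions, chr14:68658485-68660281 (1797 bp, score 263), lay 5765 bp to the left. At chr9:61813575-61814200 (272), 33 bp from a shared region, that neighbour scored 307 in LPS-treated HDAC3 KO, 414 in untreated HDAC3 KO, 89.0 in LPS-treated wt and 506 in untreated wt. At chr11:67295427-67296615 (232), 37 bp away, the neighbour scored 140, 673, 73.1 and 669 in the same order of lists. The other 2 of the 5 were chr3:116539307-116540354 (200.5) at 110 bp and chr9:47524581-47525352 (182) at 19 bp, whose neighbours scored 608 and 356 in untreated wt.

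**Figure D4:**
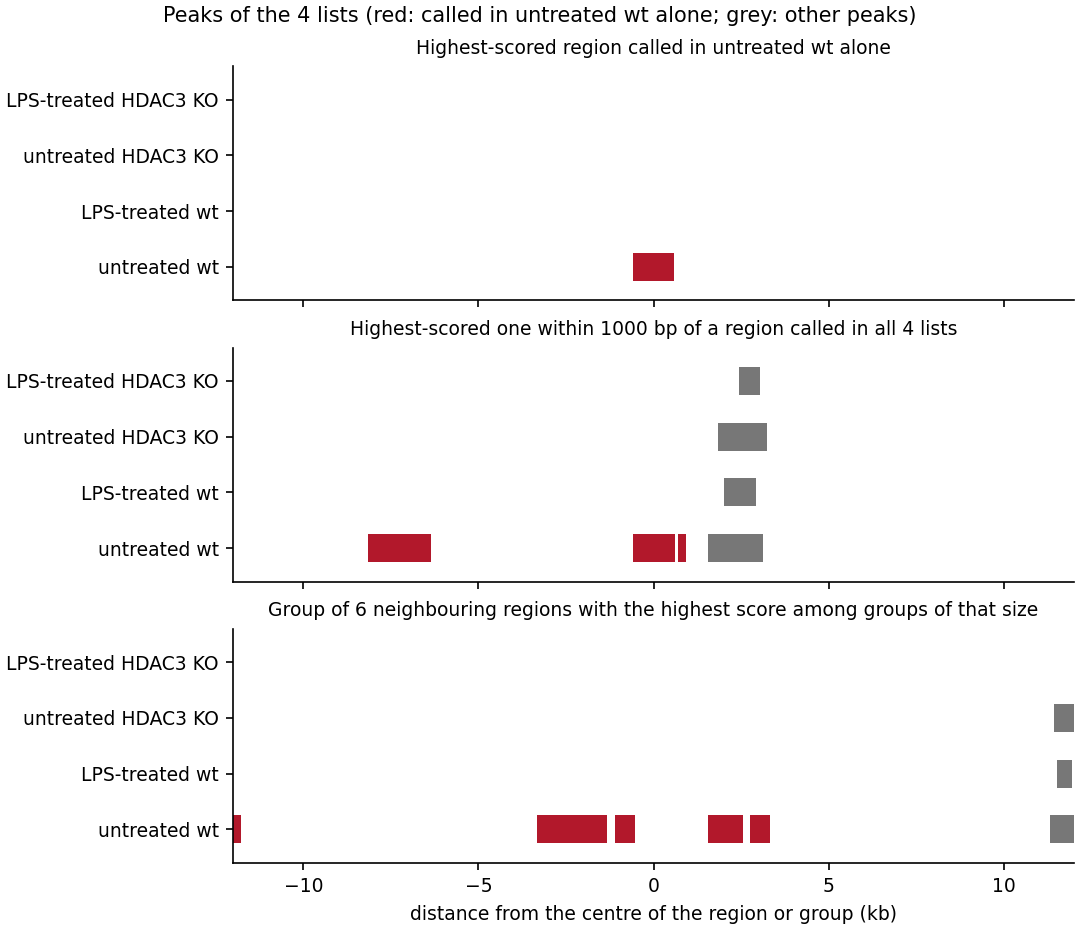
Peaks of the 4 lists (rows) within 12 kb of the centre of 3 examples (x axis, distance in kb), red for peaks called in untreated wt alone and grey for other peaks: the highest-scored region, the highest-scored one within 1000 bp of a region called in all 4 lists, and the highest-scored of the groups of 6. The first stands alone. The second lies 965 bp from the untreated wt peak of a region called in all 4 lists and 1254 bp from the nearest peak of another list. In the last, the 6 central red peaks include 2 pairs that appear joined because they are 3 and 5 bp apart. There, 1 more red peak, outside the group, lies at the left margin.

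The shared regions beside these calls were not the strongest ones. The 916 regions within 1000 bp adjoined 860 regions called in all 4 lists, whose median width was 1523 bp against 1761 bp for all 17827. Ranked among all regions called in all 4 lists, the 860 had a median score percentile of 34.4 (32.0 to 37.0) in LPS-treated HDAC3 KO, 43.7 (40.5 to 47.1) in untreated HDAC3 KO, 38.1 (34.5 to 40.7) in LPS-treated wt and 51.6 (48.2 to 54.5) in untreated wt. They were thus near the middle in the library that had the extra call and below the middle in the other 3. The neighbours of the other single-list sets also ranked highest in the library with the single-list call, there above the middle: the percentile was 70.1 for LPS-treated HDAC3 KO, 59.1 for untreated HDAC3 KO and 67.6 for LPS-treated wt. In the libraries without the call they were not always below the middle, with 54.9 (51.4 to 57.9) in LPS-treated wt beside calls of LPS-treated HDAC3 KO alone. The score of a neighbour and the call beside it come from the same library, so these percentiles describe and do not test. The neighbours of the untreated wt calls held on average 1.52 untreated wt peaks each, against 1.60 over all regions called in all 4 lists.

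**Figure D5:**
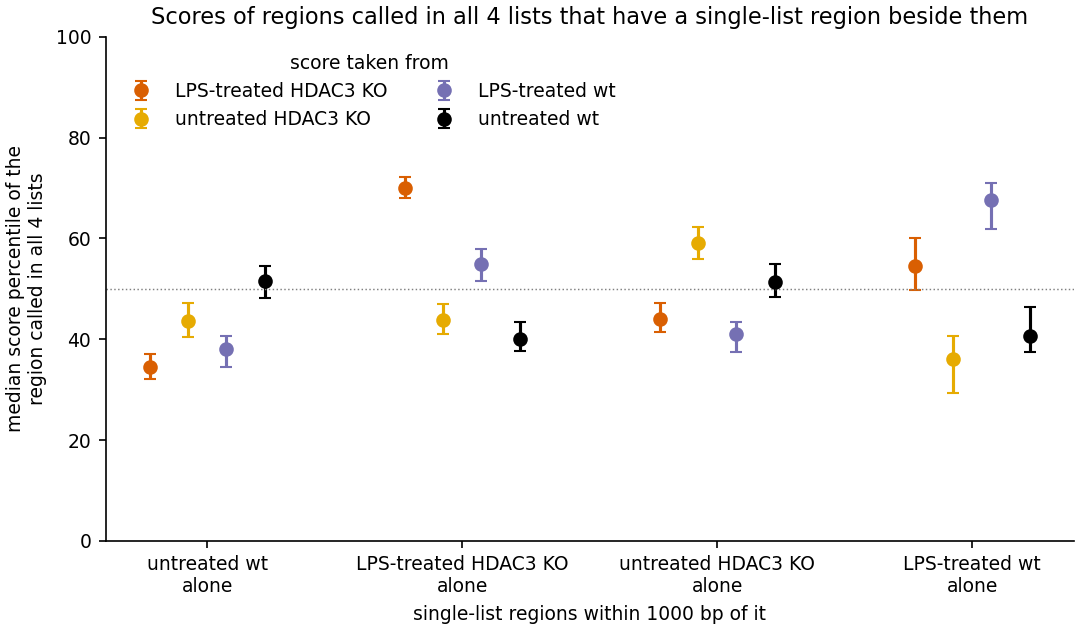
Median score percentile (y axis, among all 17827 regions called in all 4 lists) of the regions that have a single-list region within 1000 bp, by the library of that single-list region (x axis) and the library the score is taken from (colour); bars are order-statistic 95% intervals. In each set the highest of the 4 points is the library with the single-list call, with 51.6 for untreated wt.

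Scores just inside and just outside the edge of the rule overlapped, with a higher median and higher quartiles outside. For 286 regions (3.90%) a peak of another list lay 1 to 50 bp away without touching, and their median score was 65.9, with quartiles of 56.3 and 82.3. On the other side, 57 regions with an untreated wt peak were not counted because of an overlap of at most 50 bp with another list, with a median score of 73.6 and quartiles of 60.1 and 94.2. The 3 closest cases were chr14:106132628-106133130 (score 103), chr13:102433692-102434094 (70.9) and chr7:89950500-89950927 (68.7), each 1 bp from a peak of another list. At the other extreme, the region at chr6:77057825-77058043, 219 bp wide with a score of 66.1, lay 3858345 bp from any other merged region. It was followed by chr3:43237500-43237781 (61.3) at 1690414 bp and chr12:61393415-61393765 (65.7) at 1071241 bp. The other 2 of the 3 widest regions were chr6:125384345-125386084 (1740 bp, score 262) and chr14:75046083-75047781 (1699 bp, 129), and they lay 11 and 21 bp from regions shared by both untreated lists.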

How the data were processed

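The 4 files are peak lists of anti-acetyl histone H4 ChIP-seq, 1 per library. The submitters' processing notes name Bowtie and mm9, and per the file headers each list holds MACS peaks against input. Versions, settings and the input library used are not given in the sources used here. The score of each peak is deposited by the authors, with no stated scale. Reads were not used, so depth is unknown.

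Peaks were merged when overlapping or touching (a gap of 0 bp). The 62481 merged regions were identical to those of bedtools 2.31.1. Gaps are bases between edges. Intervals are 95%, exact for shares. No count of peaks or regions was tested between conditions. Regions are named by fixed ranks of score, width, gap and group size. The regions studied and these ranks were chosen with earlier results of these data known. The gene table used here is on another build, so no gene, promoter or sequence is given. Counting was checked on simulated lists. Python 3.11.15, numpy 2.4.6, pandas 2.3.3, scipy 1.17.1 and matplotlib 3.10.9 were used.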

Additional observations from a re-analysis of the deposited data

How the results depend on the processing

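Of 49 recomputed values (7 results under 7 alternatives), 12 stayed within the interval of the reported value or, for the number of regions, within 1.5 times of it; these include all 7 on chromosomes 1 to 19 only. The others follow, in the order number of regions, share of untreated wt peaks, share within 1000 bp of a region called in all 4 lists, share with nothing within 5000 bp, median gap, median width and median score. With peaks at or above the median score of each list they were 3093, 12.7%, 6.92%, 49.8%, 34957 bp, 701 bp and 155. With that limit on untreated wt alone they were 702, 2.88%, 5.41%, 45.0%, 22380.5 bp, 663.5 bp and 146. When each list was limited to its top 20000 peaks by score, the values were 1975, 9.88%, 5.11%, 55.9%, 38407 bp, 790 bp and 190. Merging across gaps of up to 500 bp gave 4770, 10.7%, 3.75%, 54.6%, 21239 bp, 388 bp and 66.1. Merging across 100 bp gave shares of 13.4, 10.2 and 39.0% and a median gap of 18378 bp. When a peak of another list had to cover at least 50% of the peak, the share of peaks was 18.4%, the share within 1000 bp 17.2%, the median gap 14744 bp, the median width 400 bp and the median score 67.4. Under every alternative the share within 1000 bp of a region called in all 4 lists stayed below the share with nothing within 5000 bp. Merging across gaps or dropping low-scored peaks removes close neighbours, so this order is partly set by the alternatives. With the 50% limit, the merged region that a peak lay in was not counted as a neighbour within 5000 bp. The same order held for the other merged regions (20.0 against 22.6%) and for every other single-list set.

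No paired analysis was possible because each group had 1 library and the labels gave no replicate numbers. The lists state what passed the authors' threshold, so signal just under it in the other libraries, and the depth behind each list, could not be measured.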

Other observations

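The regions called in untreated wt alone were found on chromosomes 1 to 19 and X. Their share of the merged regions of a chromosome ran from 10.6% on chromosome 11 (475 of 4493, interval 9.69 to 11.5%) to 14.0% on chromosome 9 (467 of 3339, 12.8 to 15.2%), with 11.9% on the X chromosome (171 of 1433, 10.3 to 13.7%). Chromosome 1 (13.7%), 13 (13.2%) and 18 (13.1%) followed chromosome 9. Of the 7337 regions, 2 lay on unplaced sequence. The regions fell to the left and to the right of their nearest region called in all 4 lists about equally, 3618 and 3719.

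Where a region lay within 1000 bp of a region called in all 4 lists, the edge facing it was set by the untreated wt peak in 26.4% of 916 cases, and the far edge of the same neighbour in 21.5%. The peak of LPS-treated HDAC3 KO set the facing edge beside them in 30.1%. For the other single-list sets, the peak of the set's own library set the facing and the far edge in 65.1 and 56.0% of 1516 cases for LPS-treated HDAC3 KO, 39.1 and 32.9% of 989 for untreated HDAC3 KO and 40.3 and 30.6% of 575 for LPS-treated wt.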
